A study of Danio rerio with 3 samples.

Results

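The collagen genes of the zebrafish brain were described over 3 arrays, 1 for each condition of the study. Members were taken by symbol: a gene counted as a collagen when its symbol in the annotation of the array platform had the form col, a number, a, a number and at most 1 further letter. The pattern found 48 genes on 53 probe sets, out of 19260 named genes on the arrays, and 47 of them passed a limit on dim signal. They belong to 20 collagen types and were sorted by type into 14 fibrillar genes (types I, II, V, XI and XXVII), 10 basement membrane genes (types IV, XV and XVIII) and 24 genes of other types. In the RefSeq gene table of assembly GRCz12tu, 60 symbols have this form, and 12 of them, among them col2a1b, col10a1b, col12a1b, col22a1 and col24a1, were not analysed here.

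All RNA came from the brain of adult zebrafish aged 6 months and kept at 28 °C. Sleep-deprived fish had spent 3 days in continuous light (a 24:0 cycle). Fear-conditioned fish had been trained in inhibitory avoidance, where entering a place is paired with an aversive stimulus and avoiding it is learned. Naive fish were untrained on a 14:10 light-dark schedule. The light cycle of the fear-conditioned fish, the time of sampling and the number of fish behind an array are not stated in the labels. With 1 array per condition there is no replicate check and no test. All differences describe these 3 arrays, in log2 signal as deposited, and a log2 difference of 1 is 2-fold.

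Collagens are secreted proteins, or in a few cases membrane proteins, built of 3 chains wound into a triple helix. Fibrillar collagens such as type I pack into the fibres that give skin, bone, dentine, tendon and meninges their strength. Type IV chains form the sheet-like network of basement membranes, which in the brain underlie the endothelium of vessels and the pial surface. Other types decorate fibrils, anchor them to neighbouring layers, or form networks of their own. Neurons make little fibrillar collagen, and in the brain its main sources are fibroblasts of the meninges and around vessels.

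The most marked collagen difference lay in the 3 type I genes and col10a1a, on the fear-conditioned array. These 4 genes were between 3.56-fold and 6.62-fold higher on the fear-conditioned array than on the naive array. The upper end is col10a1a, an average over 3 probe sets whose log2 differences ran from 0.86 to 4.48. Between the fear-conditioned and naive arrays the next largest collagen difference was 1.44-fold, for col6a2. In the same comparison the fibrillar genes outside type I differed by at most 0.31 log2, and the basement membrane genes by at most 0.15. Between the sleep-deprived and naive arrays, 0 collagen genes were 2-fold apart or more. Over all genes 0.0947% were higher and 0.668% lower by that much, so a count of 0 is near the general share. In whole brain RNA, a different number of cells of a type and a different amount of RNA per cell cannot be told apart.

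**Figure D1:**
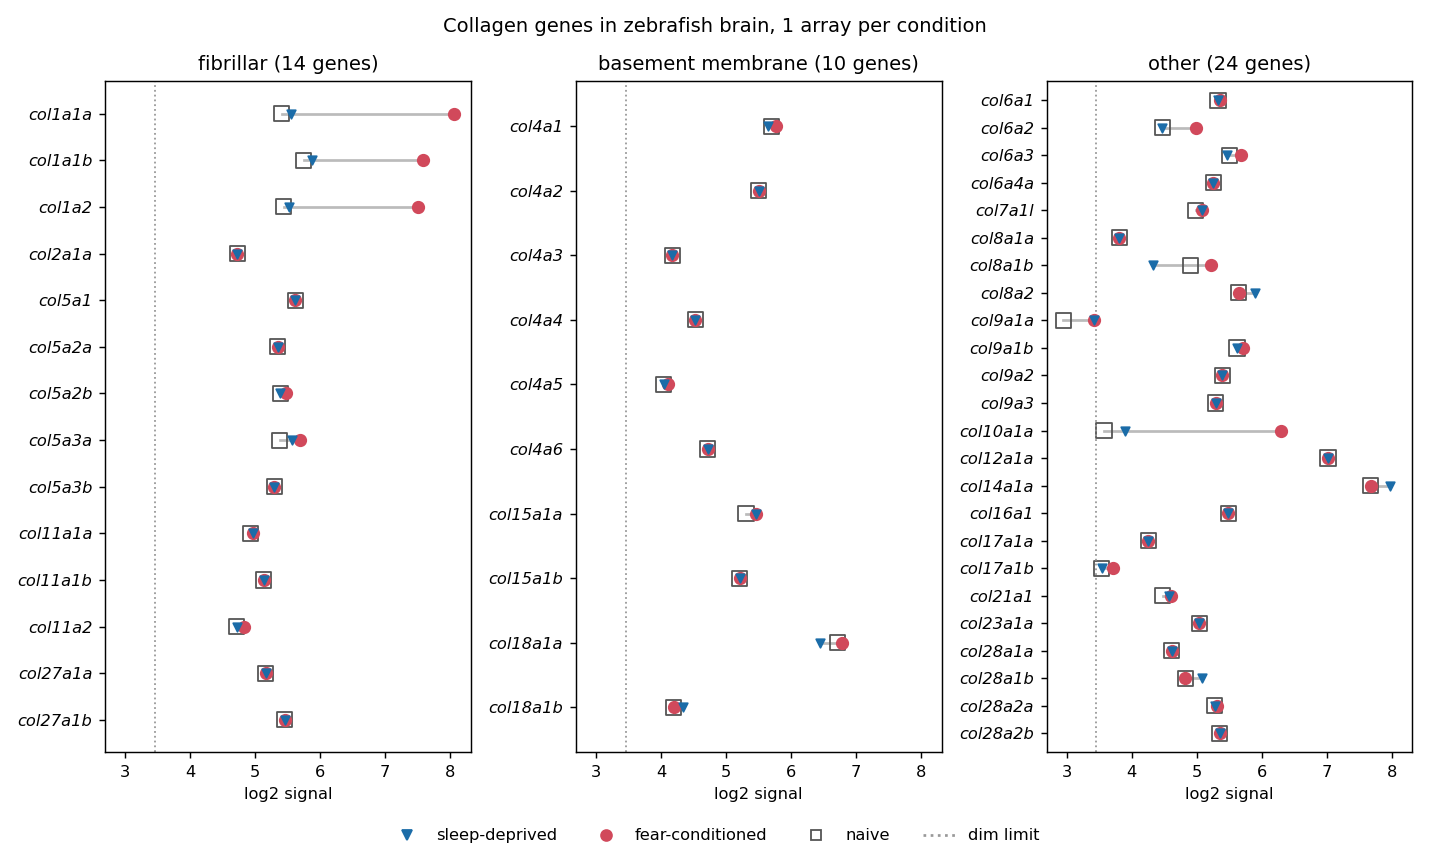
Log2 signal (x axis) of the 48 collagen genes, 1 row per gene, in panels for the fibrillar, basement membrane and other types. Blue triangles are the sleep-deprived array, red circles the fear-conditioned array and open squares the naive array, and the dotted line is the dim limit of 3.45. The red circles of col1a1a, col1a1b, col1a2 and col10a1a stand apart on the right, while 20 genes have the same value on all 3 arrays.

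Type I collagen is the main protein of bone, dentine and skin. Zebrafish build it from 3 genes, col1a1a and col1a1b, which are duplicates of the alpha-1 chain gene of mammals, and col1a2, which encodes the alpha-2 chain. The col1a1a signal was 5.55 on the sleep-deprived array, 8.07 on the fear-conditioned array and 5.41 on the naive array. The col1a1b signal was 5.88 on the sleep-deprived array, 7.58 on the fear-conditioned array and 5.75 on the naive array. The col1a2 signal was 5.53, 7.51 and 5.44 on the sleep-deprived, fear-conditioned and naive arrays. For each of the 3 genes the fear-conditioned value stood alone, and the sleep-deprived value lay slightly above the naive one. All 3 lie on different chromosomes in the GRCz12tu table, and each had 1 probe set, so no spread between probe sets can be given for them.

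Set against the naive array, the fear-conditioned array was 6.31-fold higher for col1a1a, 4.19-fold for col1a2 and 3.56-fold for col1a1b. Ordered from the most positive difference over all 17958 genes examined, these genes held ranks 3, 5 and 6. Sleep-deprived minus naive, the same genes had log2 differences of 0.14, 0.09 and 0.13, at ranks 1726, 2551 and 1883. All 3 type I chain genes were thus higher on the fear-conditioned array, and near the naive level on the sleep-deprived array.

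Type X collagen forms a short-chain network. In mammals its gene marks hypertrophic cartilage, and in zebrafish col10a1a is expressed by bone-forming cells as well. Averaged over its 3 probe sets, col10a1a had a signal of 3.89 on the sleep-deprived array, 6.30 on the fear-conditioned array and 3.57 on the naive array. Its fear-conditioned minus naive difference of 2.73 was the second most positive of all genes examined (6.62-fold). The probe sets disagreed in size but not in direction. The first had 4.35 on the fear-conditioned array and 3.49 on the naive array, a difference of 0.86. The second had 7.75 and 3.27, a difference of 4.48, and the third had 6.80 and 3.96, a difference of 2.84. Their SD was 1.81 for 3 probe sets of 1 gene, which share the same RNA and are not replicates. On the naive array the second probe set was dimmer than the limit of 3.45, and on the sleep-deprived array it was just below that limit. Its differences from the fear-conditioned array are therefore uncertain in size, and the average over the 3 probe sets includes them.

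**Figure D2:**
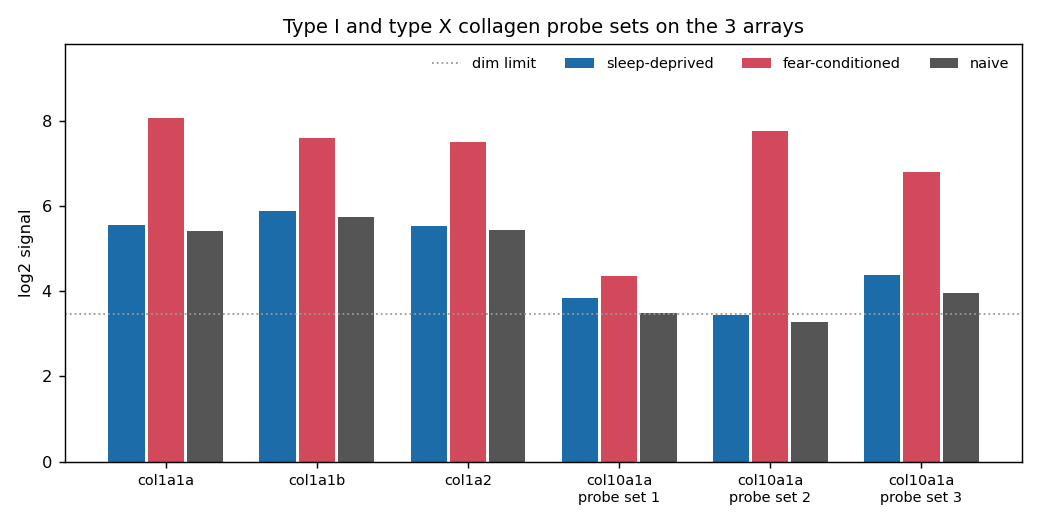
Log2 signal (y axis, bars from 0) of the single probe sets of col1a1a, col1a1b and col1a2 and of the 3 probe sets of col10a1a, with the sleep-deprived array in blue, the fear-conditioned array in red and the naive array in grey. The red bar is the highest in each of the 6 probe sets, by 0.86 to 4.48 over the naive bar, and the dotted line marks the dim limit of 3.45.

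In fear-conditioned minus naive, 4 of 47 collagen genes were at least 2-fold higher, against 0.245% of all genes examined, and 0 were at least 2-fold lower, against 0.184%. At the 1.5-fold threshold the same 4 genes were higher (0.83% of all genes) and 0 were lower (0.763%). The collagen median was 0.00, as was that of all genes, and the collagen mean was 0.25 against 0.01 over all genes. Without the type I genes and col10a1a the mean over the other 43 genes was 0.06. Exact ties weigh on these medians: 20 of the 47 collagen genes (42.6%) had 1 identical value on all 3 arrays, as did 34.2% of all genes. The fear-conditioned array alone held the highest value for 19 collagen genes (40.4%, against 20.1% of all genes), the sleep-deprived array for 4 (8.51%, against 16.1%) and the naive array for 1 (2.13%, against 15.6%). Most of the 19 differences were small, and 15 of them were below 1.5-fold.

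By class, 3 of 14 fibrillar genes, 0 of 10 basement membrane genes and 1 of 23 other genes were at least 2-fold higher on the fear-conditioned array than on the naive array. Over all genes the share was 0.245%, so the count of 0 for basement membrane genes is near the general share. The class means were 0.51 for fibrillar genes, 0.04 for basement membrane genes and 0.19 for the other types. Without type I the fibrillar mean was 0.05 over 11 genes, close to that of the basement membrane genes. The separation of fibrillar from basement membrane genes therefore rested on type I alone.

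**Figure D3:**
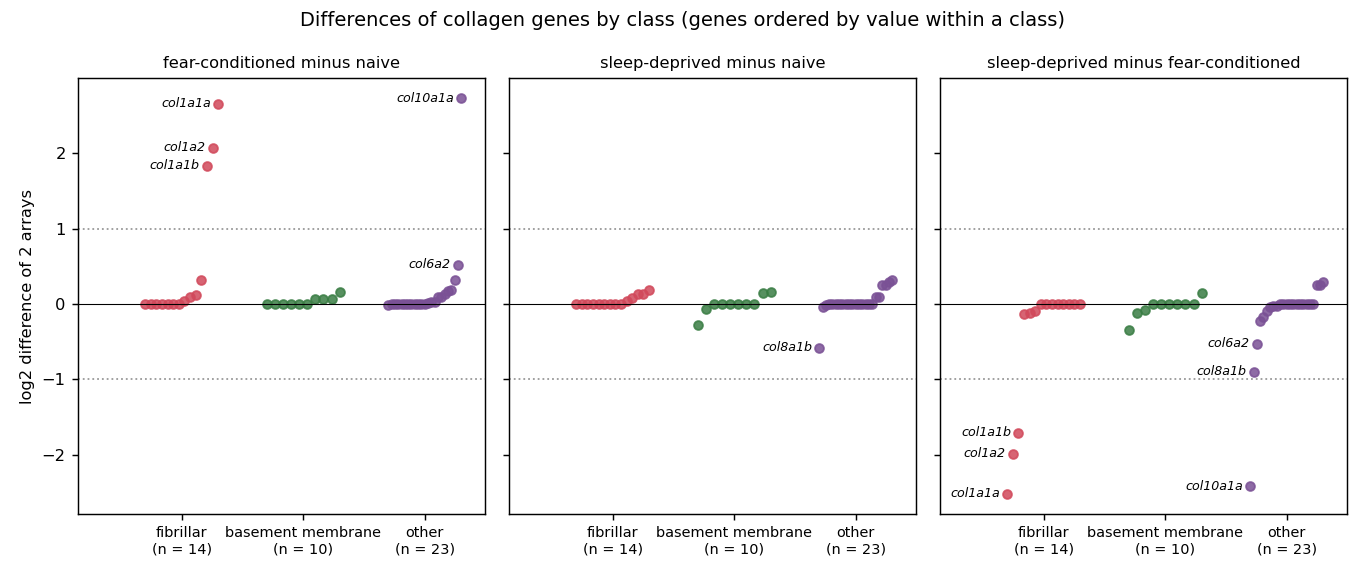
Log2 difference of 2 arrays (y axis) for the collagen genes in each class, ordered by value within a class, with 1 panel for each of the 3 comparisons. Dotted lines mark 2-fold in each direction, and genes at least 0.5 from 0 are named. Outside type I, col10a1a, col6a2 and col8a1b, every point lies within 0.35 of 0.

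The other fibrillar genes were close to level over the arrays. Type V chains join type I in the same fibrils and limit their width. The gene col5a3a had 5.57 on the sleep-deprived array, 5.69 on the fear-conditioned array and 5.38 on the naive array. Its probe sets differed, since 1 gave 6.01, 6.26 and 5.64 on the sleep-deprived, fear-conditioned and naive arrays and the other gave 5.13 on each. For col5a2b the sleep-deprived and naive arrays both had 5.39 and the fear-conditioned array 5.48. Signals of col5a2a (5.34) and col5a3b (5.30) were identical on the 3 arrays, and col5a1 differed by 0.0028 at most.

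Type II and type XI collagens form the fibrils of cartilage and of the notochord sheath. The signal of col2a1a, the main cartilage collagen, was 4.73 on all 3 arrays. For col11a2 it was 4.72 on the sleep-deprived array, 4.83 on the fear-conditioned array and 4.72 on the naive array. The values of col11a1a were 4.97, 4.97 and 4.93 in the same order, and col11a1b had 5.14 throughout. The type XXVII genes, col27a1a and col27a1b, which encode a fibrillar collagen of cartilage and developing skeleton, also kept 1 value each, 5.16 and 5.45. These 6 cartilage and skeletal fibril genes were thus within 0.12 of the naive array in both comparisons with it. Repeated values are common here: 67.3% of the naive values occurred on more than 1 probe set. A tie over the 3 arrays, in these or other genes, therefore does not by itself show stable expression.

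Basement membrane genes, like most genes on these arrays, differed little, with 6 of 10 tied in each comparison. Tied genes made up 46.2% of all genes in fear-conditioned minus naive and 44.3% in sleep-deprived minus naive. In sleep-deprived minus fear-conditioned they made up 42.4%. Of the 6 type IV genes, col4a2 (5.51), col4a3 (4.18), col4a4 (4.53) and col4a6 (4.72) had the same value on each array. Both probe sets of col4a6 were tied across the arrays as well. The remaining pair differed little: col4a1, whose product with that of col4a2 makes the common type IV network of vessels, had 5.64 on the sleep-deprived array, 5.77 on the fear-conditioned array and 5.70 on the naive array, and col4a5 had 4.04, 4.12 and 4.04. In the GRCz12tu table, col4a1 and col4a2, col4a3 and col4a4, and col4a5 and col4a6 are neighbouring genes, an arrangement known from mammals too, where each pair shares a promoter region. Within these 3 pairs the differences from the naive array were at most 0.07 for either gene.

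The multiplexins, types XV and XVIII, sit in the zone between basement membrane and matrix, and the end fragment of type XVIII is known as endostatin. The gene col18a1a had 6.44 on the sleep-deprived array, 6.79 on the fear-conditioned array and 6.72 on the naive array, and was the lowest basement membrane gene in sleep-deprived minus naive at -0.28. Its duplicate col18a1b had 4.34, 4.19 and 4.19, so that the duplicates stood on opposite sides of 0 on the sleep-deprived array. For col15a1a the sleep-deprived and fear-conditioned arrays both had 5.46 and the naive array 5.31. That difference came from 1 of 2 probe sets, at 5.71, 5.71 and 5.40, while the other was 5.22 on all arrays. The value of col15a1b was 5.22 on each array.

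Among the other types, the short-chain collagens varied most. Type VIII, a relative of type X, forms the hexagonal lattice of the membrane under the corneal endothelium and is made by vascular cells. The gene col8a1b had 4.32 on the sleep-deprived array, 5.22 on the fear-conditioned array and 4.90 on the naive array. Its sleep-deprived minus naive difference of -0.58, just short of 1.5-fold, was the largest in size among the 47 collagen genes above the dim limit, ahead of col10a1a at 0.32. Its duplicate col8a1a had 3.81 on all 3 arrays, and col8a2 had 5.90 on the sleep-deprived array, against 5.64 on both the fear-conditioned and the naive arrays.

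Type VI collagen makes beaded microfibrils around cells of muscle, nerve and connective tissue. The gene col6a2 had 4.47 on the sleep-deprived array, 4.99 on the fear-conditioned array and 4.47 on the naive array, a fear-conditioned minus naive difference of 0.52. The chains that assemble with it moved less. The signals of col6a1 were 5.33, 5.36 and 5.33, and those of col6a3 were 5.46, 5.69 and 5.51, on the sleep-deprived, fear-conditioned and naive arrays. For col6a4a the value was 5.25 on each. Of the related type XXVIII genes, col28a1b had 5.08 on the sleep-deprived array and 4.83 on the other arrays, col28a2a was at 5.28, 5.31 and 5.28, and col28a1a and col28a2b were tied.

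The fibril-associated collagens with interrupted helices (FACIT) lie on the surface of fibrils. The gene col14a1a had 7.97 on the sleep-deprived array, 7.68 on the fear-conditioned array and 7.67 on the naive array. It was the FACIT gene with the largest difference among those above the dim limit, 0.30 in sleep-deprived minus naive. The values of col12a1a (7.02), col16a1 (5.49) and col9a3 (5.29) were the same on the 3 arrays, while col21a1 had 4.57 on the sleep-deprived array, 4.61 on the fear-conditioned array and 4.48 on the naive array. Type IX decorates cartilage fibrils: col9a1b had 5.62, 5.71 and 5.62, and col9a2 5.39, 5.39 and 5.40. The member below the dim limit was col9a1a, with 3.42 on the sleep-deprived and fear-conditioned arrays and 2.94 on the naive array.

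The transmembrane collagens of type XVII belong to the hemidesmosomes of skin, and type VII forms the anchoring fibrils beneath them. The signal of col17a1a was 4.25 on all arrays, and that of col17a1b was 3.54 on the sleep-deprived array, 3.71 on the fear-conditioned array and 3.54 on the naive array. A further transmembrane gene, col23a1a, had 5.04 on each array. For col7a1l, the type VII gene of the platform annotation that the symbol pattern takes in, the sleep-deprived and fear-conditioned arrays had 5.08 and the naive array 4.98. Collagen genes of the skin attachment zone thus differed from the naive array by at most 0.18.

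In sleep-deprived minus naive, 0 of 47 collagen genes were at least 2-fold higher (0.0947% of all genes) and 0 were at least 2-fold lower (0.668%). At 1.5-fold the counts were also 0 and 0, against 0.484% and 2.43% of all genes. Of the 47 genes, 29 had exactly the naive value, 13 lay above it and 5 below, and 41 differed from it by at most 0.2. Over all 17958 genes 44.3% had exactly the naive value, 4445 lay above it and 5557 below, and 14663 were within 0.2. The collagen differences ran from -0.58 for col8a1b to 0.32 for col10a1a, with a mean of 0.03 over collagen genes against -0.03 over all genes. The class means were 0.04 for fibrillar genes, -0.0038 for basement membrane genes and 0.03 for the others, and subtracting the median of each array turned that of the basement membrane genes positive, to 0.04.

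Sleep-deprived minus fear-conditioned differences follow from the other comparisons, since each is 1 of them minus the other. Here 4 of 47 collagen genes were at least 2-fold lower (0.869% of all genes) and 0 were at least 2-fold higher (0.134%). They were the type I genes, with col1a1a at -2.52, col1a2 at -1.98 and col1a1b at -1.70, and col10a1a at -2.41. At 1.5-fold, col8a1b joined them at -0.90 (5 genes, 2.71% of all genes), with 0 genes higher (0.562%). By class, 3 of 14 fibrillar, 0 of 10 basement membrane and 1 of 23 other genes were at least 2-fold lower.

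Collagen chains pass through a long chain of processing. Of 31 genes for modification, folding and secretion, 0 were at least 1.5-fold higher or lower on the fear-conditioned array than on the naive array. Over all genes 0.83% were higher and 0.763% lower by that much, so a count of 0 is near the general share. Differences of the 31 genes ran from -0.45 to 0.42. Chosen after its values were seen, serpinh1b, which encodes the collagen chaperone Hsp47, was 5.19 on all 3 arrays, and its duplicate serpinh1a was 5.45 on all. Prolyl hydroxylation stabilizes the helix: its catalytic subunit gene p4ha1b had 6.90 on the fear-conditioned array and 7.31 on the naive array, a difference of -0.41. Another gene of this list, p3h4, was at -0.45. On the other side were sec24d, a coat protein of the vesicles that carry procollagen, at 0.42, and sparc, a collagen-binding matrix protein, at 0.41.

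Of 15 genes of propeptide cleavage and cross-linking, 0 were at least 1.5-fold higher or lower in fear-conditioned minus naive, with 8 above 0 and 0 below. Over all 17958 genes examined, 5492 were above 0 and 4172 below, with 0.83% at least 1.5-fold higher and 0.763% lower. The largest were the procollagen C-proteinase enhancer genes pcolcea and pcolceb, at 0.505 and 0.498. They were followed by loxl2b, a lysyl oxidase relative, at 0.42, and pcolce2b at 0.32. On the sleep-deprived array pcolcea was lower than naive by -0.63 (5.25 against 5.88), as were loxl1 at -0.58 and loxl2b at -0.48.

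The small proteoglycan biglycan binds type I fibrils, and bgna had 5.91 on the fear-conditioned array and 5.04 on the naive array (0.87). It was the only 1 of 17 genes for proteoglycans and fibril-associated proteins at least 1.5-fold higher (0.83% of all genes). The decorin gene dcn was at -0.04. The biglycan duplicate bgnb had 7.24 on the sleep-deprived array and 7.87 on both other arrays. Collagen breakdown genes were led by the metalloproteinase inhibitor timp4.3, at -1.22 in fear-conditioned minus naive, and by the collagenase mmp13b at 0.53. On the sleep-deprived array the membrane-bound metalloproteinase mmp14b was at -1.22 against naive, and the lysosomal collagenase gene ctsk at -0.56. In this list of 14 genes, 1 was at least 2-fold lower in each comparison with naive and 0 were higher. Over all genes 0.184% were at least 2-fold lower in fear-conditioned minus naive and 0.668% in sleep-deprived minus naive.

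Of 12 collagen receptor genes, 9 had exactly the naive value on the fear-conditioned array, as did 46.2% of all genes. The largest difference was 0.18, for the integrin gene itgb1b. On the sleep-deprived array 7 of the 12 lay below naive and 1 above, with a median of -0.19, where over all 17958 genes 5557 lay below and 4445 above. The discoidin receptor gene ddr2a, whose product binds fibrillar collagen, had 5.32 on the sleep-deprived array, 6.52 on the fear-conditioned array and 6.39 on the naive array. It was the only receptor gene at least 2-fold lower in sleep-deprived minus naive (0.668% of all genes). Non-collagen basement membrane genes had 1 of 19 at least 2-fold higher on the fear-conditioned array (0.245% of all genes). This was paplnb, at 1.21, while the laminin genes lamb3 and lamc1 were at 0.31 and 0.14.

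**Figure D4:**
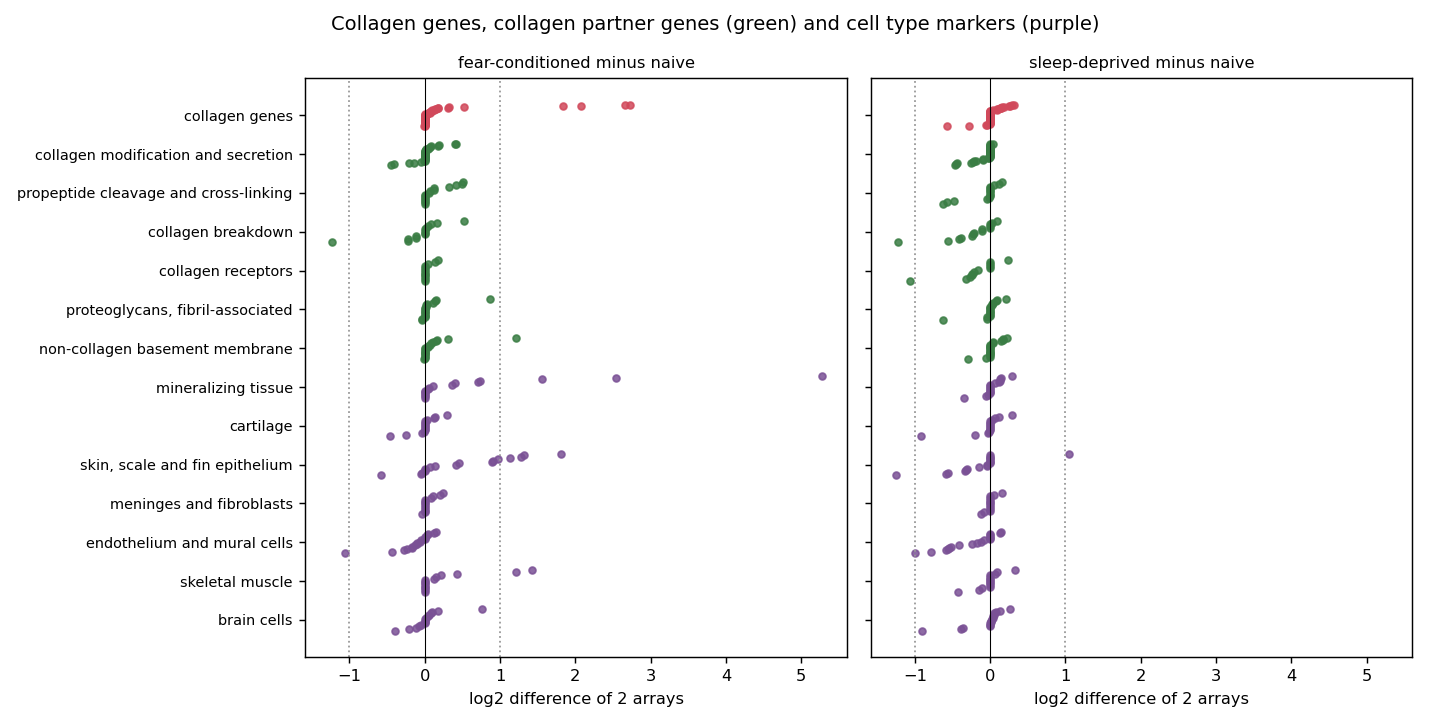
Log2 difference (x axis) of fear-conditioned minus naive (left) and sleep-deprived minus naive (right) for collagen genes (red), 6 lists of collagen partner genes (green) and 7 lists of cell type markers (purple), 1 point per gene, with 2-fold marked by dotted lines. On the left, points past 2-fold higher occur among collagen genes, non-collagen basement membrane genes and markers of mineralizing tissue, skin and skeletal muscle.

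Some markers of mineralizing tissue, skin and skeletal muscle were higher on the fear-conditioned array. The marker lists were chosen with earlier results of these data known, so they give no independent check. Among 16 markers of osteoblasts, odontoblasts and mineralizing tissue, 3 were at least 2-fold higher in fear-conditioned minus naive (0.245% of all genes). At 1.5-fold, 5 were higher (0.83% of all genes) and 0 lower (0.763%). Highest were scpp7, a secretory calcium-binding phosphoprotein, at 5.28, and the enamel matrix genes ambn at 2.54 and enam at 1.55. A further 2 genes were past 1.5-fold. The median of the 16 was 0.08, and 6 had exactly the naive value (46.2% of all genes). The mean log2 level of this list was 4.90 on the sleep-deprived array, 5.61 on the fear-conditioned array and 4.87 on the naive array. The osteoblast factor sp7 was close to level, with 4.61 on the fear-conditioned array and 4.55 on the naive array.

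Among skin, scale and fin epithelium markers, 4 of 17 were at least 2-fold higher in fear-conditioned minus naive (0.245% of all genes). At 1.5-fold, 7 were higher (0.83% of all genes) and 0 lower (0.763%). They were led by krt5 at 1.81, epcam at 1.32 and cdh1 at 1.27. In fear-conditioned minus naive 11 of the 17 were above 0 and 3 below, where over all 17958 genes 5492 lay above and 4172 below. The fin fold gene and1 had 6.99 on the sleep-deprived array, 5.37 on the fear-conditioned array and 5.95 on the naive array, so it ran the other way (-0.58). Their mean level was 5.18 on the sleep-deprived array, 5.84 on the fear-conditioned array and 5.33 on the naive array. In fear-conditioned minus naive 2 of 14 skeletal muscle markers, pvalb2 (1.42) and ckma (1.21), were at least 2-fold higher (0.245% of all genes). The signal of acta1b was 3.95 on every array. The part of these tissues in the type I and type X differences was not tested.

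Of 13 markers of meninges and fibroblasts, 0 were at least 1.5-fold higher or lower in fear-conditioned minus naive. Over all genes 0.83% were higher and 0.763% lower by that much. The difference was -0.0014 for pdgfra, and the largest was 0.25, for crabp2a. The part of these cells in the type I differences was not tested. Against the same shares, cartilage markers gave 0 of 15 at least 1.5-fold higher or lower. The signal of acana was 4.90 on each array, and that of sox9a 8.99 on the fear-conditioned array against 9.24 on the naive array. Of 18 markers of endothelium and mural cells, 0 were at least 1.5-fold higher and 1, rgs5a at -1.06, was at least 2-fold lower (0.184% of all genes). In sleep-deprived minus naive, 3 of these 18 were at least 1.5-fold lower (2.43% of all genes), while type IV genes stayed within 0.07 of naive.

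As a check of the labelled tissue, defining brain markers were bright on every array. This shows brain RNA on each array but cannot check for RNA of other tissues. The neuronal gene elavl3 had 10.2 on each array, the myelin gene mbpa 11.4 on the sleep-deprived array, 11.9 on the fear-conditioned array and 11.8 on the naive array, and the astroglial gene gfap 7.39, 9.05 and 8.30. The mean level of 16 brain cell markers was 9.75, 9.83 and 9.81 in the same order. In fear-conditioned minus naive 1 of the 16, gfap at 0.76, was at least 1.5-fold higher (0.83% of all genes). In sleep-deprived minus naive 1, again gfap, was at least 1.5-fold lower, at -0.91 (2.43% of all genes).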

How the data were processed

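Samples were assigned to 3 conditions from their labels, with 1 array each. Trizol was used for RNA and, per the labels' protocols, sense cDNA was fragmented and biotin-labelled (GeneChip WT kit). The deposited values, 1 per probe set and array, span 0.61 to 13.4 and were taken as log2 signal. Neither log base nor normalization is stated in the labels. The median over all probe sets is 4.99 on each array. Over the genes examined, the array medians differ by -0.0442 in sleep-deprived minus naive.

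Of 75212 probe sets, 20806 have 1 symbol in the platform annotation, 855 several and 53551 none. Symbols were updated through Entrez identifiers with the RefSeq table of GRCz12tu, and probe sets of a gene averaged. Genes at or above 3.45 on at least 1 array (the lower quartile over the table) were kept (17958 of 19260). That limit is not a measured background. Differences between arrays were counted at 2-fold and 1.5-fold, and values count as equal within 1e-09. The counting step was tested on simulated data. Python 3.11.15 and pandas 2.3.3 were used.

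The members and lists were chosen with earlier results of these data known. Listed markers were matched by symbol or, failing that, by a RefSeq synonym. Named genes are the members, up to 4 genes of each partner list and 3 of each marker list with the largest difference in a comparison, and fixed defining markers; serpinh1a and serpinh1b fall outside this rule. No sequences are shown.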

Additional observations from a re-analysis of the deposited data

Results flagged for a closer look

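A signal appeared in a probe set that the collagen comparisons do not use. This probe set names both klhl41b and col28a2b, so its gene cannot be told, and it was 5.03 on the sleep-deprived array, 3.70 on the fear-conditioned array and 3.78 on the naive array. Its sleep-deprived minus naive difference was 1.25, a 2.38-fold higher signal. The probe set that names col28a2b alone had 5.35 on all 3 arrays.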

How the results depend on the processing

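With 1 array per condition no spread between samples is known, which limits the precision of every value. Of 843 values recomputed under 13 other settings and 2 more chosen after seeing the data, 837 counted as unchanged and 0 called values changed sign. A difference or mean was unchanged if it stayed on the same side of 2-fold and moved by at most 1.5-fold. A count was unchanged if equal, or if above 0 in both with a ratio of at most 1.5. This rule is wide for means: without type I the fibrillar mean in fear-conditioned minus naive went from 0.51 to 0.05 and counted as unchanged. The 6 values that changed were counts and came from leaving out the genes that were called. With type I left out of the fibrillar class, 0 fibrillar genes were at least 2-fold higher in fear-conditioned minus naive and 0 lower in sleep-deprived minus fear-conditioned. With type I and col10a1a left out, 0 collagen genes and 0 fibrillar genes were past 2-fold in these directions. Differences of col10a1a in fear-conditioned minus naive ran from 2.72 to 3.31, and those of col1a1a from 2.65 to 2.66. No setting used the first col10a1a probe set alone, at 0.86, and values were raised to the dim limit on gene averages only. The col10a1a range thus leaves out most of the spread between its probe sets. Small values were less stable. The basement membrane mean in sleep-deprived minus naive ran from -0.04, with the dim limit at the median, to 0.04, with arrays centred. That in sleep-deprived minus fear-conditioned ran from -0.09 to 0.01 under the same settings. In sleep-deprived minus naive, col8a1b was at -0.59 after quantile normalization, past 1.5-fold, and at -0.53 with each array centred on its median. With the brightest probe set alone, col5a3a was at 0.62 in fear-conditioned minus naive, past 1.5-fold. No paired analysis was possible because each condition has a single array.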

Other observations

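Duplicated collagen genes did not always share a pattern. On the sleep-deprived array col8a1b differed from naive by -0.58 and col8a1a by 0.00, col18a1a by -0.28 and col18a1b by 0.15, and col28a1b by 0.25 and col28a1a by 0.00. The type I duplicates did share 1, with fear-conditioned minus naive differences of 2.66 for col1a1a and 1.83 for col1a1b.

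A further 3 probe sets carry collagen symbols in capitals, COL7A1, COL13A1 and COL25A1, and lie outside the symbol pattern. Each had 1 value on all 3 arrays, at 4.62, 4.58 and 6.03. A probe set that names both col5a3a and col5a3 had 6.31 on the sleep-deprived array, 6.45 on the fear-conditioned array and 6.31 on the naive array.

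Exact ties also occurred between genes. On the naive array the value 4.61 stood for col28a1a and for 1 probe set of col4a6, and 5.62 for both col5a1 and col9a1b. Over the whole table, 225636 values held 77190 distinct ones, and 67.3% of the naive values occurred on more than 1 probe set. Of 17958 genes, 6.58% had the same sleep-deprived and naive value with a higher fear-conditioned value, as did 9 of 47 collagen genes (19.1%).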
